A study of Arabidopsis thaliana with 8 samples.

Results

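The data compared endosperm that inherited no functional NRPD1, the gene for the largest subunit of RNA polymerase IV (Pol IV), with wild-type (WT) endosperm of the same hybrid cross. Every gene for which Cuffdiff gave a test status of OK, and which lay outside the regions where the Ler mutant plants still carried Col-0 sequence, was taken. This left 15990 of the 37329 genes in the table, 14585 of them protein-coding. WT endosperm was the F1 of a Ler female and a Col-0 male (2 libraries), and nrpd1-/- endosperm was the F1 of a Ler nrpd1-/- female and a Col-0 nrpd1-/- male (3 libraries). Both parents of the mutant cross therefore carried the T-DNA allele nrpd1a-4, which arose in Col-0 and was crossed into Ler, and 12 regions of Col-0 sequence remained in that line. Endosperm was dissected by hand from seeds 7 days after pollination, and each library pooled many seeds.

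Pol IV transcribes transposons and other silent sequences into short RNAs that are copied by RDR2, cut by DCL3 into small interfering RNAs and loaded onto AGO4-type Argonautes. These guide the methyltransferase DRM2 to DNA with the help of a sister polymerase, Pol V, in the pathway called RNA-directed DNA methylation. Endosperm is the tissue beside the embryo that passes nutrients to it. In Arabidopsis it first divides as a syncytium, then forms cell walls, lays down some protein and oil, and is largely consumed as the embryo grows.

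The deposited table held 1 pooled abundance per genotype, in FPKM, a read density scaled to transcript length and library size. There was thus no value per library and no replicate check, the authors' own p-values were not used, and a difference is given as the log2 ratio of nrpd1-/- to WT after 1 FPKM was added to each. A gene was counted as higher or lower where this ratio reached 2-fold. By this rule 1247 genes (7.80% of those counted) were higher and 1057 (6.61%) were lower in nrpd1-/-, and the median log2 ratio was close to 0 (-0.0039, quartiles -0.37 and 0.38). In the nuclear genome 1235 genes (7.79%) were higher and 996 (6.28%) lower. Among protein-coding genes 1063 (7.29%) were higher and 805 (5.52%) lower. Genes that went from under 1 FPKM to at least 10 FPKM numbered 99, of which 47 were protein-coding. Those that went the other way numbered 22, of which 10 were protein-coding. Of the genes counted 310 were listed at 0 FPKM in WT and 78 in nrpd1-/-. The part of read depth in these counts was not tested.

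The libraries of the 2 genotypes were sequenced with different read lengths, so genotype and sequencing run cannot be told apart. The lowest values of intronless genes came in steps, which put 1 FPKM over 1 kb of transcript at about 31.0 reads in the WT column and 139 reads in the nrpd1-/- column, so low WT values were the less precise. A second WT column, deposited with the comparison for mat nrpd1+/- endosperm, was used as a check after centring on the median. The libraries behind it were not named, and its steps put 1 FPKM over 1 kb at about 92.2 reads. Against this column 2125 genes (13.3%) were higher and 2718 (17%) lower. The second WT column itself differed by 2-fold from the first, with 2569 genes (16.1%) higher and 1530 (9.57%) lower in it. Both comparisons use the same nrpd1-/- values and are given side by side.

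**Figure D1:**
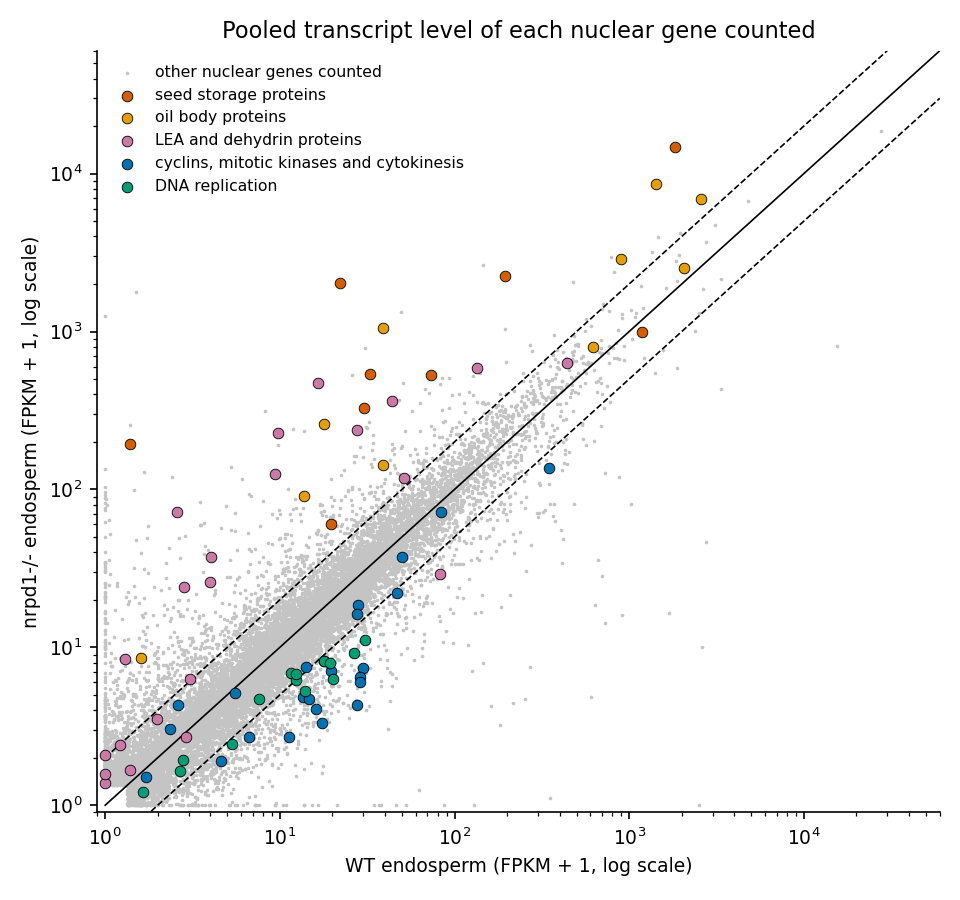
Level of each nuclear gene counted in nrpd1-/- endosperm (vertical axis, FPKM plus 1, log scale) against WT endosperm (horizontal axis, same scale), with members of selected lists coloured. Most genes lie along the diagonal (quartiles of the log2 ratio -0.37 and 0.38), while storage and oil body genes lie above it and cell division genes below it.

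NRPD1 itself (AT1G63020, listed as NRPD1A, chromosome 1 of TAIR10 from 23354685 to 23362589) lies inside a residual Col-0 region and was not among the genes counted. It stood at 4.34 FPKM in WT and 2.08 FPKM in nrpd1-/- (log2 ratio -0.79), so reads still fell on the gene in the mutant. The second WT column had 2.28 FPKM, a log2 ratio of 0.0019 after centring.

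Of the 33 functional lists, the one with the highest median ratio in nrpd1-/- endosperm was that of seed storage proteins, the cruciferins, albumins and vicilin-type globulins that fill protein storage vacuoles. Of 13 such genes 9 were counted, and 8 of the 9 were higher and 0 lower, with a median log2 ratio of 3.42. Against the second WT column 8 were also higher and 0 lower, with a median of 6.56. In bulk tissue, a different number of cells of a type and a different amount of RNA per cell cannot be told apart.

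The 300 bases around the start sites of 3 reserve genes are printed here because these genes mark the ends of the range, AT1G03890 with the largest ratio and AT4G36700 and OLEO3 with the smallest of the storage and oil body lists. Each runs from 250 bases before to 50 bases after the start in RefSeq's TAIR10.1 annotation. Capitals mark CATGCA, the core of the RY repeat that B3 factors such as ABI3 and FUS3 bind, and ACGTG, the core of the abscisic acid response element, on either strand (CACGTG holds ACGTG on each strand and counts on both).
AT1G03890 (1:988948-989247, plus strand): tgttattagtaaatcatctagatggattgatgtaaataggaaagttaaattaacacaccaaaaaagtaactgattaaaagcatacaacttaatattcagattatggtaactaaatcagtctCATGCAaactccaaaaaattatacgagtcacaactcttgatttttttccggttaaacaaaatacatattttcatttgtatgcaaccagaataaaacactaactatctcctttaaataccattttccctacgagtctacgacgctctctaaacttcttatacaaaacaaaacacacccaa
AT4G36700 (4:17300318-17300617, minus strand): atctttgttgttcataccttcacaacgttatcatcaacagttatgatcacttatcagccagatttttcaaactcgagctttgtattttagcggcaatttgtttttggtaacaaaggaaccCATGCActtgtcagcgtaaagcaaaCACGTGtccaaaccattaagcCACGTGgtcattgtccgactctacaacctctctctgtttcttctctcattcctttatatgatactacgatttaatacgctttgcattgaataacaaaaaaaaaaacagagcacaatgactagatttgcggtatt
OLEO3 (5:20819818-20820117, plus strand): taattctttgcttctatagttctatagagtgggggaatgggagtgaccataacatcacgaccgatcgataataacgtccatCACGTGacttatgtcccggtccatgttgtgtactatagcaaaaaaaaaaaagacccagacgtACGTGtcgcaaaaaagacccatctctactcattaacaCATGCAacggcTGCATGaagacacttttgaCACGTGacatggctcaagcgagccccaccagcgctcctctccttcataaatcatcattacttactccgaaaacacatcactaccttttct

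The gene with the largest ratio, AT1G03890, held 1 RY core and no ACGTG. AT4G36700 held 1 RY core and 4 matches to ACGTG, and OLEO3 held 2 and 5. Over whole lists, CATGCA stood in 11 of 13 storage protein promoters and 12 of 15 oil body promoters, against 9.72% of all 27443 protein-coding promoters in the table. ACGTG stood in 9 of 13 and 11 of 15, against 26.7% of all. Among the genes counted, CATGCA was found in 14.8% of promoters of higher genes and 8.45% of promoters of lower genes, and ACGTG in 35.2% and 28.4%. In all 14584 counted genes with a promoter in the table the shares were 8.56% and 27.2%.

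CRU2 (AT1G03880), which encodes cruciferin 2, a 12S globulin, stood at 21.1 FPKM in WT and 2042 FPKM in nrpd1-/- (96.6 times WT, log2 ratio 6.53). Its neighbour AT1G03890, a cupin of the same kind on chromosome 1 from 989198 to 991020, went from 0.385 to 193 FPKM (log2 ratio 7.13). In the second WT column these genes were at 2.40 and 0.133 FPKM. Reads shared between such related neighbours could be split between them by the counting.

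The vicilin-type globulin PAP85 (AT3G22640) was at 31.6 FPKM in WT and 539.7 FPKM in nrpd1-/- (log2 ratio 4.05), and the vicilin-like gene AT2G28490 at 29.4 and 325 FPKM (3.42). Among the 2S albumins, small sulphur-rich storage proteins, SESA1 (AT4G27140) went from 194 to 2254 FPKM, SESA4 (AT4G27170) from 1827 to 14762 FPKM and SESA5 (AT5G54740) from 72.1 to 528 FPKM. These albumins were thus 2.86 to 3.53 higher on the log2 scale. The last member above the 2-fold line was the cupin AT2G18540 at 18.7 and 59.1 FPKM. AT4G36700, another cupin, was the 1 counted member not past 2-fold, at 1187 FPKM in WT and 999 FPKM in nrpd1-/- (log2 ratio -0.25).

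The remaining 4 members, CRA1, CRU3, SESA2 and SESA3, had the status HIDATA in nrpd1-/-, which Cuffdiff gives where a locus holds too many fragments to be estimated. They are listed at 0 there, so no difference can be given. Their WT values were 781 FPKM for CRA1, 71.4 for CRU3, 1319.9 for SESA2 and 3285 for SESA3. The same status was given to 17 loci in all, among them OLEO1 (2716 FPKM in WT), the extensin gene EPR1 (4677 FPKM) and the defensin-like gene LCR69 (19996 FPKM).

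**Figure D2:**
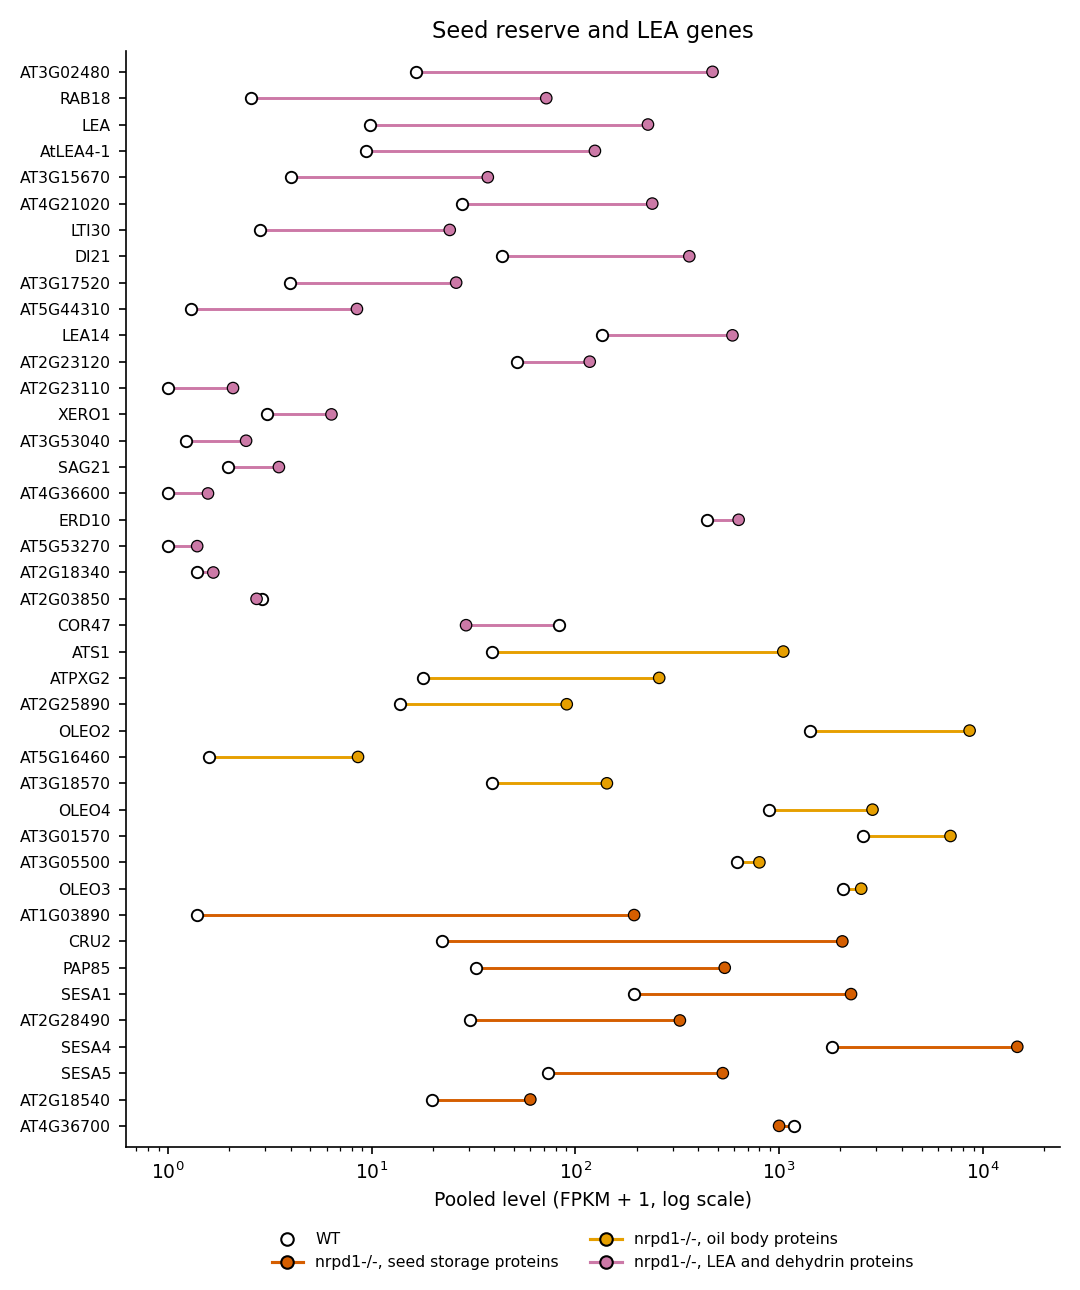
Pooled level (horizontal axis, FPKM plus 1, log scale) of each counted storage protein, oil body and LEA gene, 1 gene per line, with WT as an open point and nrpd1-/- as a filled point. The points lie far apart for CRU2 (21.1 and 2042 FPKM) and close together for AT4G36700 (1187 and 999 FPKM) and OLEO3 (2061 and 2528 FPKM).

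Oil body proteins had the next highest median. Of 15 genes 10 were counted, and 8 were higher and 0 lower, with a median log2 ratio of 2.15 against WT and 3.06 against the second WT column. Oleosins coat the surface of seed oil bodies. OLEO2 (AT5G40420) stood at 1416 FPKM in WT and 8611 FPKM in nrpd1-/- (log2 ratio 2.60), OLEO4 (AT3G27660) at 892 and 2873 FPKM (1.69), and AT3G01570 at 2589.7 and 6936 FPKM (1.42). Those oleosins were already abundant in WT, and OLEO3 (AT5G51210) stayed at 2061 and 2528 FPKM (0.29).

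The caleosins are calcium-binding oil body proteins with peroxygenase activity. ATS1 (AT4G26740), caleosin 1, went from 37.9 to 1047 FPKM (log2 ratio 4.75) and ATPXG2 (AT5G55240) from 16.8 to 257 FPKM (3.86). The seipin-like gene AT5G16460 had 0.597 and 7.56 FPKM (2.42). The small rubber particle protein homologue AT3G05500 differed little, at 619 and 799 FPKM (0.37).

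Genes that make the oil differed less than those for the proteins that coat it. Of 29 genes of fatty acid and oil synthesis 23 were counted, with 3 higher, 2 lower and a median log2 ratio of -0.40. The higher genes were the sucrose synthases SUS2 (275 to 757 FPKM) and SUS3 (2.66 to 7.68 FPKM), which feed sucrose into the pathway, and ROD1 (4.26 to 13.4 FPKM), which moves unsaturated fatty acids into the oil precursor pool. The lower genes encode plastid enzymes. MOD1, enoyl-ACP reductase, was at 436 and 209 FPKM (log2 ratio -1.06), and LPD1, a subunit of the plastid pyruvate dehydrogenase, at 206 and 89.9 FPKM (-1.19). Neither was past 2-fold against the second WT column (-0.61 and -0.26), which gave 4 higher and 3 lower genes and a median of -0.06. The elongase KCS18 (FAE1), which makes the very long-chain fatty acids of seed oil, stood at 555 and 1008 FPKM (0.86), and the desaturase genes FAD2 and FAD3 had log2 ratios of 0.42 and 0.27.

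Late embryogenesis abundant (LEA) proteins and dehydrins are hydrophilic proteins that accumulate as seeds dry. Of 40 such genes 22 were counted, of which 14 were higher and 1 lower, with a median log2 ratio of 1.66 against WT and 2.49 against the second WT column. RAB18 (AT5G66400), a dehydrin induced by abscisic acid, went from 1.57 to 70.9 FPKM (log2 ratio 4.81). AT3G02480 went from 15.5 to 470.0 FPKM (4.83), and the dehydrin gene LEA (AT2G21490) from 8.77 to 226 FPKM (4.54). The ratios of the higher members ranged down to 1.06 for XERO1 (2.04 and 5.34 FPKM), which had a ratio of -0.029 against the second WT column.

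LTI30, a cold-induced dehydrin, had 1.83 FPKM in WT and 23.2 FPKM in nrpd1-/-, and LEA14 had 133 and 589 FPKM. The dehydrin gene ERD10 was at 439 and 632 FPKM (0.52, and 1.96 against the second WT column) and COR47 at 81.7 and 28.04 FPKM (-1.51), the 1 gene of the list that was lower. COR47 had a log2 ratio of -0.11 against the second WT column.

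Abscisic acid is the hormone that promotes seed maturation and dormancy. Of 32 genes for its synthesis, breakdown and signalling 24 were counted, with 7 higher, 1 lower and a median log2 ratio of 0.38. DOG1 (AT5G45830), a dosage-sensitive regulator of seed dormancy, stood at 0.763 FPKM in WT and 28.7 FPKM in nrpd1-/- (log2 ratio 4.08). The seed phosphatases of the same pathway followed it, with AHG1 (AT5G51760) at 1.23 and 26.4 FPKM (3.62) and HAI2 at 0.325 and 5.06 FPKM (2.19). The kinase gene OST1 went from 12.8 to 32.9 FPKM, with a ratio of 0.67 against the second WT column, while its relative SNRK2.3 was the lower gene at 7.90 and 3.36 FPKM (-1.03).

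Both a synthesis gene and a breakdown gene were among the higher members. NCED6, which cleaves the carotenoid precursor of abscisic acid in endosperm, had 25.5 and 58.3 FPKM (1.16), and the catabolic hydroxylase gene CYP707A2 had 0.319 and 1.98 FPKM (1.18). LTI65, a response gene, went from 1.76 to 8.07 FPKM. Relative to the second WT column 10 genes of the list were higher and 2 lower. The receptor genes PYR1 and PYL2 lay between 1.76 and 2.48 FPKM in both genotypes.

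Seed maturation transcription factors, a list that also holds the repressor MYB118, were not higher against WT alongside these genes. Of 21 such factors 16 were counted, with 0 higher, 5 lower and a median log2 ratio of -0.09. ABI3 (38.2 to 58.5 FPKM, 0.60) and FUS3 (123 to 171 FPKM, 0.47), the B3 factors that bind the RY repeat, stayed under 2-fold. LEC1 (AT1G21970), a NF-Y subunit of early maturation, was at 207 and 79.8 FPKM (-1.36), and LEC2 (AT1G28300), another B3 factor, at 21.6 and 6.67 FPKM (-1.56). WRI1 (AT3G54320), the activator of fatty acid synthesis genes, stood at 178 and 44.0 FPKM (-2.00).

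The other lower factors were MYB115 at 28.9 and 6.27 FPKM (-2.04) and BZO2H3, a bZIP factor, at 20.9 and 7.27 FPKM (-1.40). MYB118 (AT3G27785), which represses maturation genes in endosperm, was abundant in both genotypes, at 322 and 254 FPKM (-0.34). NF-YB6 (L1L), a relative of LEC1, was at 696 and 733 FPKM. Against the second WT column 3 factors were higher and 4 lower, with ABI3 at 1.59, MYB118 at 1.33 and WRI1 at -2.22. The bZIP gene DPBF2 was at 65.2 and 107 FPKM, and its relative EEL, which lies in a residual Col-0 region and was not counted, at 227 and 448 FPKM.

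Genes of reserve breakdown were mostly level. Of 11 genes 8 were counted and 1 was higher. This was ICL (AT3G21720), isocitrate lyase of the glyoxylate cycle, at 1.65 FPKM in WT and 48.0 FPKM in nrpd1-/- (log2 ratio 4.21). Its partner MLS, malate synthase, lies in a residual Col-0 region and had 9.39 and 2.77 FPKM. The acyl-CoA oxidases ACX1, ACX2 and ACX4, which start fatty acid breakdown, lay between -0.40 and 0.39. With the second WT column 3 genes were higher and 0 lower.

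Cell division genes lay in the opposite direction to the reserve genes. Of 29 cyclins, mitotic kinases and cytokinesis genes 23 were counted, with 14 lower, 0 higher and a median log2 ratio of -1.295, where 6.61% of all genes were lower. In the comparison with the second WT column 11 were lower and 1 higher, with a median of -0.77. There 17% of all genes were lower. Among the lower genes were the B-type cyclins, which drive entry into mitosis. CYCB1;3 (AT3G11520) stood at 26.8 FPKM in WT and 3.31 FPKM in nrpd1-/- (-2.69), CYCB1;4 (AT2G26760) at 27.8 and 5.50 FPKM (-2.15), and CYCB2;2 (AT4G35620) at 10.3 and 1.69 FPKM (-2.07).

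Kinases and cytokinesis genes were also among the lower members. The plant mitotic kinase CDKB2;2 (AT1G20930) had 27.7 and 4.99 FPKM (-2.26, and -0.77 against the second WT column), and CDKB1;1 (AT3G54180) had 18.5 and 6.07 FPKM (-1.46). HIK (AT1G18370), a kinesin needed for cytokinesis, was at 16.5 and 2.32 FPKM (-2.40), and the cytokinesis syntaxin SYP111 (KNOLLE) at 346 and 135 FPKM (-1.35).

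Other members, described here after their values were seen, stayed within 2-fold. CDC2 (CDKA;1), the kinase of the whole cell cycle, was at 82.2 and 71.2 FPKM (-0.20). CYCD2;1 and CYCD3;3, which act at the start of the cycle, had log2 ratios of -0.10 and -0.60, and CYCA2;3 (1.60 to 3.32 FPKM, 0.73) had the highest ratio of the list.

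**Figure D3:**
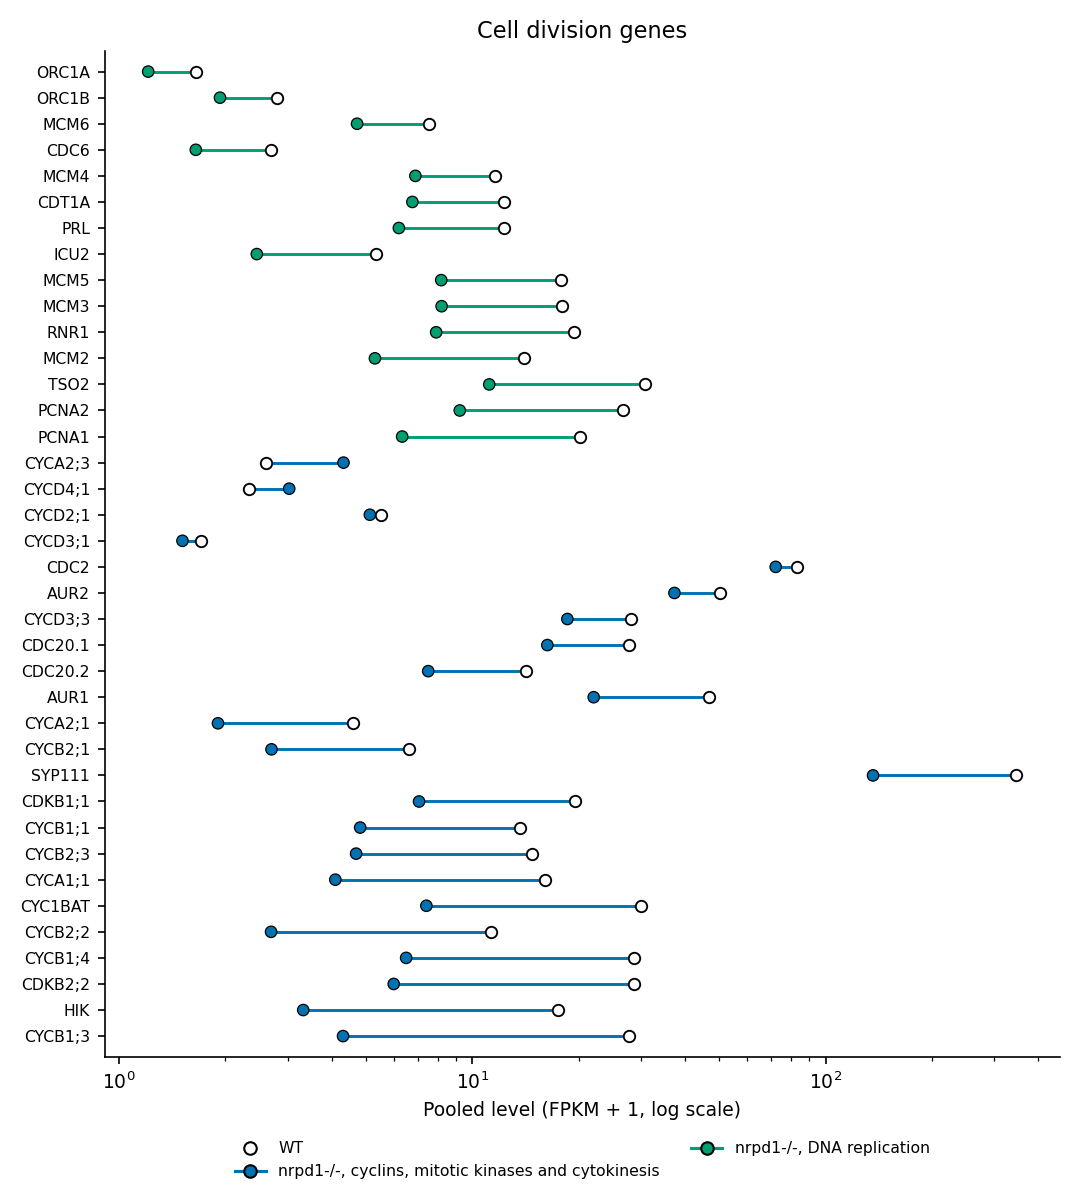
Pooled level (horizontal axis, FPKM plus 1, log scale) of each counted cell division and DNA replication gene, 1 gene per line, with WT as an open point and nrpd1-/- as a filled point. The filled point lies to the left for most genes, as for CYCB1;3 (26.8 and 3.31 FPKM) and PCNA1 (19.2 and 5.33 FPKM), and close to the open point for CDC2 (82.2 and 71.2 FPKM).

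DNA replication genes were lower as a group. Of 16 genes 15 were counted, and all 15 had a log2 ratio below 0, with 8 past 2-fold and a median of -1.12. When set against the second WT column, 5 were lower and 0 higher, with a median of -0.32. The sliding clamp genes PCNA1 (AT1G07370) and PCNA2 (AT2G29570) were at 19.2 and 5.33 FPKM (-1.67) and at 25.7 and 8.22 FPKM (-1.53). The helicase subunit MCM2 had 13.0 and 4.30 FPKM (-1.40), while MCM4 and MCM6 stayed under 2-fold at -0.75 and -0.68. The ribonucleotide reductase genes TSO2 and RNR1, which make the DNA building blocks, had log2 ratios of -1.47 and -1.299, and -1.92 and -0.28 against the second WT column.

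Core and linker histones were mixed. Of 42 genes 31 were counted, with 8 lower, 0 higher and a median of -0.54. The lower members included HTA6 (124 to 34.6 FPKM, -1.81) and HTB2 (36.7 to 11.2 FPKM, -1.62). The replication-type H3 genes AT1G09200 (106 to 32.9 FPKM, -1.66) and AT5G65360 (103 to 32.6 FPKM, -1.63) were also lower. The replacement-type H3.3 genes AT4G40030 and AT4G40040 had positive ratios, 0.79 and 0.71. The second WT column gave 23 lower and 1 higher, with a median of -1.59. Histone genes of a class are nearly identical, so reads could be split between copies.

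Nuclear genes for photosynthesis were level. Of 53 genes 44 were counted, with 0 higher, 4 lower and a median of -0.07. The lower members were the light-harvesting genes LHCB2.1 (304 to 146 FPKM), LHCB2.2 (331 to 153 FPKM) and LHCB2.3 (65.5 to 18.0 FPKM) and the Rubisco small subunit gene RBCS3B (44.1 to 18.3 FPKM). Other antenna genes hardly differed, with CAB1 at 1075 and 1229.9 FPKM. The second WT column gave 20 lower members and a median of -0.75, with LHCB2.1 and LHCB2.2 at -0.30 and -0.67.

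Transcripts of the chloroplast and mitochondrial genomes depended on the WT column used. Of 133 chloroplast genes 90 were counted, with 12 higher, 33 lower and a median of -0.74 against WT. Against the second WT column 70 were higher and 7 lower, with a median of 2.94. The 12 higher genes were all tRNAs, each listed at 0 in WT, and 3 of them were also higher against the second WT column. Others were more abundant in that column, such as ArthCt100 with 272 FPKM in nrpd1-/- and 7285 FPKM there. Of 64 protein-coding genes 28 were lower and 0 higher. The lowest ratios among these lay at very short loci, such as psbT (-5.84) and petN (-5.56). The core photosystem II gene psbA stood at 998 and 273 FPKM and the Rubisco large subunit gene rbcL at 1349 and 285 FPKM. Of 152 mitochondrial genes 51 were counted, with 28 lower, 0 higher and a median of -1.05 against WT, and 33 higher, 0 lower and a median of 1.61 against the second WT column. Chloroplast transcripts summed to 247600 FPKM in WT, 55651 in nrpd1-/- and 48334 in the second WT column. Very short loci held the largest WT values, such as trnS (ATCG00290, 34229 and 922 FPKM) and psbF (30484 and 3687 FPKM). Among longer genes petB (2291 and 2490 FPKM) and psaB (2074 and 1342 FPKM) differed less, while psbA and rbcL were lower. Organelle transcripts largely lack poly(A) tails, and the part that library preparation plays in these values was not tested.

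Of 28 genes for Pol IV, Pol V and RNA-directed DNA methylation 25 were counted, with 1 higher, 2 lower and a median log2 ratio of -0.19. These counts stand beside 7.80% higher and 6.61% lower of all genes counted. All 3 past 2-fold belong to the CLASSY family of chromatin remodellers, which bring Pol IV to its target sites, and they lay in both directions. CHR42 (AT5G20420, CLSY2) was at 1.02 FPKM in WT and 3.71 FPKM in nrpd1-/- (1.22). CHR38 (AT3G42670, CLSY1) was at 26.9 and 9.34 FPKM (-1.43), and CHR40 (AT3G24340, CLSY4) at 7.55 and 2.41 FPKM (-1.33). The ratios to the second WT column were 2.00 for CHR42, -0.55 for CHR38 and -1.27 for CHR40. Over the list 6 genes were higher and 1 lower against that column, with a median of 0.22. Of all genes counted 13.3% were higher and 17% lower against it.

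Other steps of the pathway lay within 2-fold of WT. RDR2 had 10.5 and 5.89 FPKM (-0.74) and DCL3 3.08 and 3.01 FPKM (-0.02). AGO4 had 98.5 and 130.0 FPKM (0.40) and DRM2 28.9 and 26.7 FPKM (-0.11). NRPD2A, the subunit shared by Pol IV and Pol V, had 19.1 and 14.1 FPKM (-0.41).

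Of 15 genes for maintaining or removing DNA methylation 8 were counted, and 1, VIM3 (3.96 to 1.43 FPKM, -1.03), was lower. The list median was -0.41, but 0.33 against the second WT column, where VIM3 stood at -0.26 and 1 gene was higher and 0 lower. The maintenance methyltransferase gene MET1 was at 5.59 and 3.08 FPKM (-0.69) and CMT2 at 12.3 and 10.7 FPKM. DML1 (ROS1), a demethylase gene, and CMT3 lie in residual Col-0 regions and had 75.6 and 14.4 FPKM and 8.53 and 2.09 FPKM. In the post-transcriptional small RNA pathway 10 of 12 genes were counted and 2 were lower, AGO5 (6.21 to 1.98 FPKM) and RDR1 (4.05 to 1.33 FPKM). With the second WT column 2 were higher and 1 lower, and RDR1 was at -0.79. Among Polycomb PRC2 subunits, which place repressive histone marks, 6 of 8 were counted and 0 passed 2-fold, with a median of -0.52. FIE was at 73.6 and 55.5 FPKM and MSI1 at 60.8 and 49.98 FPKM. Of 66 loci whose RefSeq product names a transposon or transposase 13 were counted, with 0 higher and 1 lower. These counts stand beside 7.80% higher and 6.61% lower of all genes counted. So few loci cannot show how transposons in general differed.

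Imprinted genes are expressed mainly from the maternal or the paternal copy in endosperm. Their names were pooled over the columns of the study's supplementary sheet on imprinted genes, and how the genes of that sheet were chosen was not checked. In each class the pooled names outnumber the imprinted genes that the paper counted, so these sets are not the paper's. Of 279 maternally expressed genes 198 were counted, with 27 higher, 13 lower and a median of 0.05, beside 7.80% higher and 6.61% lower of all genes counted. Of 103 paternally expressed genes 71 were counted, with 5 higher, 8 lower and a median of -0.09. With the second WT column 40 maternally expressed genes were higher and 26 lower. For the paternally expressed genes these counts were 10 and 11. They stand beside 13.3% higher and 17% lower of all genes counted against that column.

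The maternally expressed gene with the largest ratio was AT2G01422, at 4.52 FPKM in WT and 70.3 FPKM in nrpd1-/- (3.69). SDC (AT2G17690), an F-box gene whose promoter repeats are a known target of RNA-directed DNA methylation, was at 0.122 and 2.78 FPKM (1.75). The second WT column had 10.2 FPKM for SDC and a ratio of -1.47, so its direction turned with the WT column. Lower members included AT3G20450 (11.6 to 1.303 FPKM, -2.45), the homeobox gene WOX8 (14.5 to 2.195 FPKM, -2.28) and the inositol oxygenase gene MIOX1 (49.7 to 11.9 FPKM, -1.97).

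Among paternally expressed genes the lowest ratios were those of the GATA factor GATA29 (AT3G20750), at 52.7 and 8.88 FPKM (-2.44), and the homeobox gene HDG3 (AT2G32370), which promotes endosperm cellularization, at 9.93 and 1.14 FPKM (-2.35). The highest were FRD3, a citrate transporter gene, at 21.3 and 122 FPKM (2.47), AT5G22470 at 1.63 and 9.92 FPKM (2.05), and AT5G60760 at 7.77 and 32.6 FPKM (1.94). Early endosperm regulators could hardly be assessed. Of 13 genes of the HAIKU pathway and its relatives 3 were counted, and of 19 type I MADS-box genes 2 were counted, with AGL80 at 4.03 and 6.76 FPKM.

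**Figure D4:**
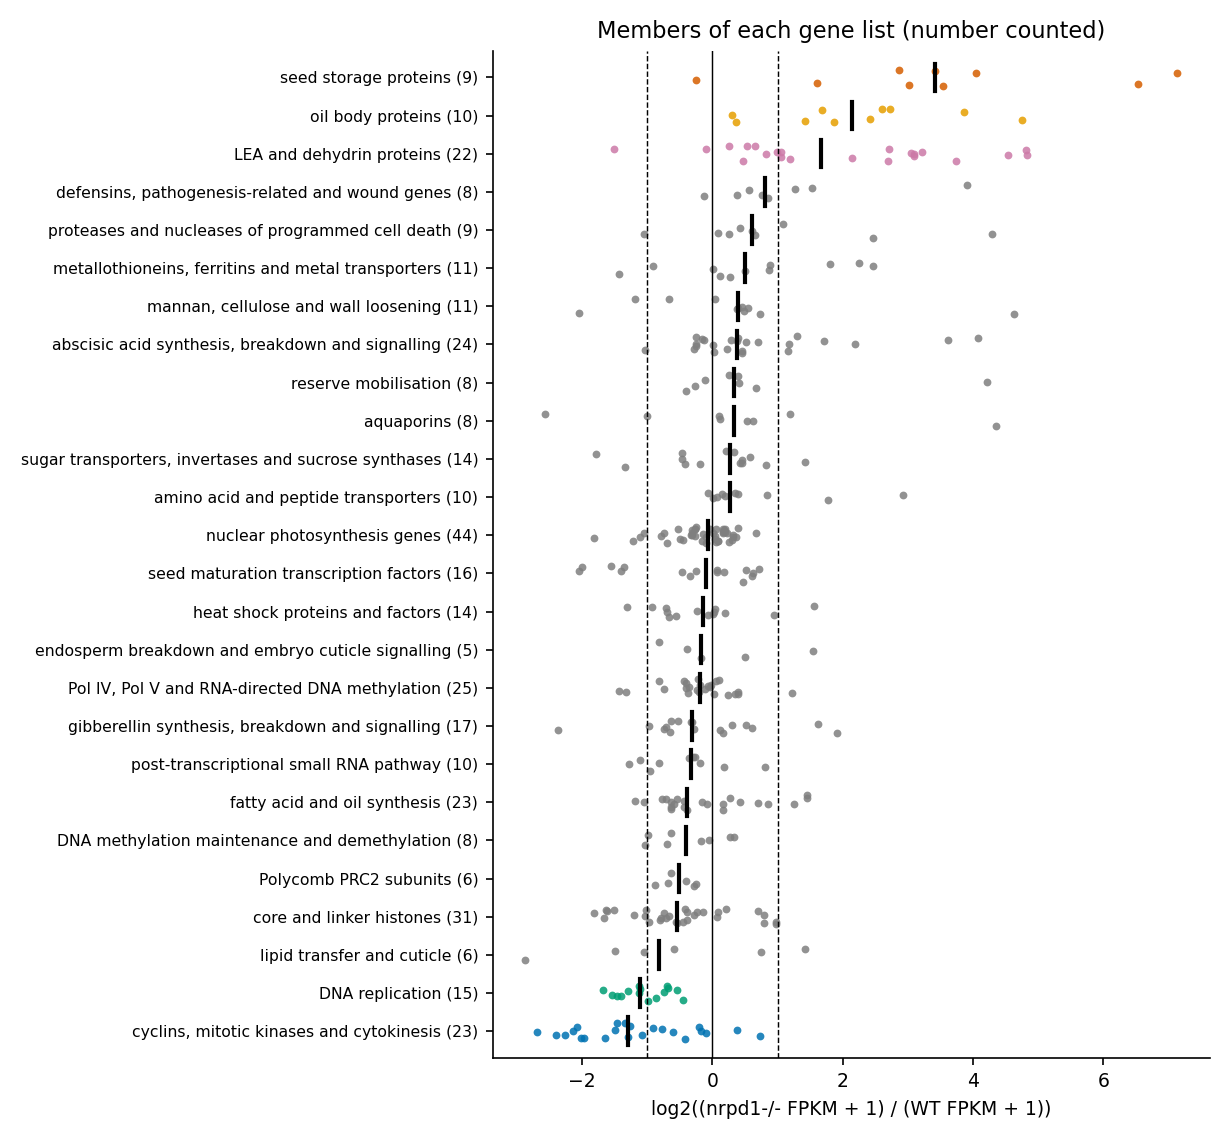
Log2 ratio of nrpd1-/- to WT (1 FPKM added to each) for every counted member of the nuclear functional lists with at least 5 genes counted, with a black bar at the median of each list and dashed lines at 2-fold. Storage proteins (median 3.42), oil body proteins (2.15) and LEA proteins (1.66) lie to the right of 0, and cyclins and mitotic kinases (-1.295) and DNA replication genes (-1.12) to the left.

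Gibberellin opposes abscisic acid in seeds. Of 30 genes for its synthesis, breakdown and signalling 17 were counted, with 2 higher and 1 lower, beside 7.80% and 6.61% of all genes counted. GAI, a DELLA repressor of the response, was at 2.21 and 8.83 FPKM (1.61), and the response gene GASA3 at 0.137 and 3.29 FPKM (1.92). KAO2, a synthesis enzyme, was at 21.97 and 3.43 FPKM (-2.37). Relative to the second WT column 3 were higher and 4 lower, beside 13.3% and 17% of all genes counted. Of 18 auxin genes 2 were counted, both under 1 FPKM, while YUC10, an auxin synthesis gene of endosperm in a residual Col-0 region, was at 12.9 and 79.3 FPKM.

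In sugar transport 14 of 29 genes were counted, with 1 higher and 2 lower. The sucrose transporter gene SUC2 was at 133 and 359 FPKM (1.42). Its name was also among those pooled as paternally expressed, a label that was not checked. SWEET11, a sucrose exporter, was at 1629 and 1879 FPKM (0.21). STP1, a hexose transporter, was at 14.6 and 3.51 FPKM (-1.79), but 2.97 FPKM in the second WT column, which gave 4 higher and 1 lower over the list. Among amino acid transporters 10 of 18 were counted and 2 were higher, the exporters UMAMIT24 (1.62 to 18.8 FPKM, 2.92) and UMAMIT28 (19.0 to 67.5 FPKM, 1.77), with 3 higher against the second WT column.

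Proteases and nucleases of programmed cell death, which break down cell contents as tissue dies, were counted at 9 of 14 genes, with 3 higher, 1 lower and a median of 0.61. The ribonuclease gene RNS3 (AT1G26820) stood at 8.70 and 189 FPKM (4.29) and the nuclease gene BFN1 (AT1G11190) at 62.3 and 349.7 FPKM (2.47). Of the vacuolar processing enzyme genes, ALPHA-VPE was at 566 and 1202 FPKM (1.09) and DELTA-VPE, a seed coat protease, at 198 and 94.8 FPKM (-1.05). Set against the second WT column, 7 genes were higher and 0 lower, the median was 1.66 and DELTA-VPE was at -0.51. The cysteine protease gene CEP1 was at 1022 and 1369 FPKM.

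Among genes of endosperm breakdown and embryo cuticle signalling 5 of 9 were counted and 1 was higher, the epidermal fatty acid elongase gene KCS10 at 31.3 and 93.3 FPKM. ICE1, which drives endosperm breakdown with its partner ZHOUPI, was at 702 and 399 FPKM (-0.81). ZHOUPI (listed as RGE1) and its target ALE1 lie in residual Col-0 regions and had 67.4 and 43.2 FPKM and 98.1 and 31.6 FPKM. Of 22 wall genes 11 were counted, with 1 higher and 2 lower. All 3 are of the xyloglucan endotransglycosylase family, which remodels wall polymers. XTR6 was at 0.606 and 38.6 FPKM (4.62), XTH24 at 214 and 51.2 FPKM (-2.04) and TCH4 at 203 and 88.5 FPKM (-1.19). The second WT column had 20.17 FPKM of XTH24, so the direction for this gene turned with the WT column, and TCH4 was at -0.24. Over the list that column gave 5 higher and 0 lower genes and a median of 0.74.

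The seed aquaporin gene BETA-TIP (AT1G17810), a protein of storage vacuole membranes, was at 24.8 FPKM in WT and 526 FPKM in nrpd1-/- (4.35). Its relative TIP3;1, in a residual Col-0 region, was at 168 and 1575 FPKM. The vegetative tonoplast gene TIP2 was at 5.66 and 0.125 FPKM (-2.57), but at 0.814 FPKM in the second WT column (-0.60). Over the list 8 of 14 aquaporin genes were counted, with 2 higher and 1 lower, and 1 higher and 1 lower against the second WT column.

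Of 19 genes for metal binding and transport 11 were counted, with 3 higher and 1 lower. The higher members were FRD3, the seed ferritin gene FER2 (12.2 to 61.8 FPKM, 2.25) and the metallothionein gene MT1C (2.12 to 9.94 FPKM, 1.81). FER3, another ferritin gene, was at 123 and 44.9 FPKM (-1.44). Against the second WT 7 were higher and 2 lower. Of 15 lipid transfer and cuticle genes 6 were counted, with 1 higher and 3 lower. LTP4 stood at 404 and 54.5 FPKM (-2.87) and LTP3 at 139 and 48.5 FPKM (-1.49), while the higher member LTP5 was at 1.39 and 5.36 FPKM (1.41), and the second WT column gave 2 higher and 2 lower.

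Of 26 defence genes 8 were counted, with 3 higher and 0 lower, among them PR4, a chitin-binding protein gene, at 0.140 and 16.1 FPKM (3.91). RBOHD, an oxidase that makes reactive oxygen, was at 9.08 and 23.2 FPKM (1.26), and the defensin gene PDF2.1 at 821 and 2365 FPKM (1.53), though at 2235 FPKM in the second WT column. Of 26 heat shock genes 14 were counted, with 1 higher (HSP17.4, 9.57 to 30.1 FPKM) and 1 lower (HSP90.1, 20.12 to 7.47 FPKM). With the second WT column 0 were higher, HSP17.4 among them not past 2-fold at 0.91, and 8 were lower, with a median of -1.04. The heat shock chaperone gene HSP70 was level at 175 and 167 FPKM.

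The levels of other seed tissues were read from marker genes. Of 25 seed coat markers 18 were counted, with 4 higher, 2 lower and a median of -0.39, and the whole list summed to 612 FPKM in WT, 824 in nrpd1-/- and 605 in the second WT column. The 4 higher members were the flavonoid synthesis genes TT4 (27.8 to 184 FPKM, 2.68), F3H (42.6 to 194 FPKM, 2.16) and TT5 (2.93 to 9.05 FPKM, 1.35) and the regulator MYB5 (2.81 to 10.2 FPKM, 1.55). LDOX, which acts later in the same pathway, was at 8.44 and 2.71 FPKM (-1.35), and MUM2, a mucilage enzyme, at 16.7 and 7.64 FPKM (-1.03). Relative to the second WT column 4 were higher and 3 lower, and TT5 (0.11), MYB5 (0.84) and MUM2 (0.33) were not past 2-fold in the direction given. TT12 and AHA10, genes of the pigment layer, were under 1 FPKM in both genotypes. The part of seed coat RNA in the other differences was not tested.

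Embryo patterning markers were low. Of 19 genes 6 were counted, with 0 higher and 1 lower, and the list summed to 94.6 FPKM in WT and 111 in nrpd1-/-. In both genotypes 14 of the 19 were under 1 FPKM, among them the meristem genes WUS and STM, and PLT2 and CLV3 were at 0. CUC1, a gene of the shoot boundary, was at 27.0 and 12.3 FPKM (-1.07), and the epidermal gene ATML1 at 11.2 and 21.9 FPKM (0.90). Storage, oil body and LEA genes are also strongly expressed in maturing embryos, and the part of embryo RNA in those differences was not tested.

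Of 15 endosperm markers 1 was counted, MYB118. The markers SUC5 (133 to 218 FPKM), ALE1, RGE1 and YUC10, all in residual Col-0 regions, were well expressed in both genotypes. PHE1, AGL62, FWA, MEA and IKU2, which are genes of the early syncytial endosperm or its imprinted regulators, were under 1 FPKM in both.

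Across nuclear genes the largest single ratios lay partly at protein-coding genes and partly at very short loci. AT4G10370, a C1 domain protein gene on chromosome 4 from 6423353 to 6425678, was listed at 0 in WT and 1247 FPKM in nrpd1-/-. AT1G14950, a gene of the polyketide cyclase and lipid transport family, went from 0.507 to 1769 FPKM (log2 ratio 10.20). AT1G05450, a lipid transfer type gene, went from 0.384 to 256 FPKM (7.54). The second WT column had 0.560 FPKM or less for each of these. The pseudogene AT3G28865 was at 0.00648 and 86.4 FPKM.

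The other extremes were mostly small RNAs of the nucleolus. Of the 12 genes with the highest ratios 6 were snoRNAs, each at 0 in WT, such as AT2G08375 (103 FPKM in nrpd1-/-). For 3 of these 6 the second WT column had more than nrpd1-/-, AT2G20722 (134 FPKM in nrpd1-/-, ratio -0.11), AT1G06273 (95.3 FPKM, -1.06) and AT5G00755 (90.7 FPKM, -1.13). Of the 12 with the lowest ratios 9 were snoRNAs, such as AT3G01313 (2602 and 9.06 FPKM) and AT5G02325 (352 and 0.104 FPKM), and the lowest was the spliceosomal RNA gene U6.10p (2520.4 FPKM in WT, listed at 0 in nrpd1-/-). Over all 135 snoRNAs counted 51 were higher and 63 lower, so members of this class lay in both directions. The remaining 2 low genes, AT3G48298 and AT3G01319, encode uncharacterized proteins and were listed at 0 in nrpd1-/-, from 128 and 51.8 FPKM in WT.

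Calls varied with locus length. Among the 1585 shortest nuclear loci, of 64 to 1107 bp, 20.6% of genes were higher and 14.1% lower, with a median of 0.24. Among the 1585 longest, of 6503 to 27265 bp, 3.79% were higher and 6.88% lower, with a median of -0.22. With the log2 ratios centred within 20 bins of locus length, 8 storage, 8 oil body and 11 LEA genes were still higher, and 13 cell division and 7 replication genes still lower.

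Protein-coding genes outside the lists were picked after their values were seen, among those with the largest ratios. KCS16, a very long-chain fatty acid elongase, was at 0.664 and 129 FPKM (6.28), RWP1, a suberin acyltransferase, at 0.0579 and 63.0 FPKM (5.92), and the lipoxygenase gene LOX5 at 0.756 and 57.6 FPKM (5.06). Others were ELIP1, a light stress protein gene, at 0.0713 and 50.9 FPKM (5.60), the superoxide dismutase gene AT3G56350 at 1.41 and 119 FPKM (5.64) and the thionin gene AT2G15010 at 0.462 and 98.2 FPKM (6.08).

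On the lower side were the lysosomal thiol reductase gene GILT (AT4G12960) at 413 and 33.0 FPKM (-3.61), the transcription factor gene DOF6 (AT3G45610) at 119 and 9.33 FPKM (-3.54), and SIP2, a raffinose-hydrolysing enzyme gene, at 41.8 and 3.54 FPKM (-3.24). TOPII, topoisomerase II, was at 17.7 and 2.01 FPKM (-2.64) and MAP65-4, a microtubule bundling protein, at 24.3 and 3.13 FPKM (-2.61).

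**Figure D5:**
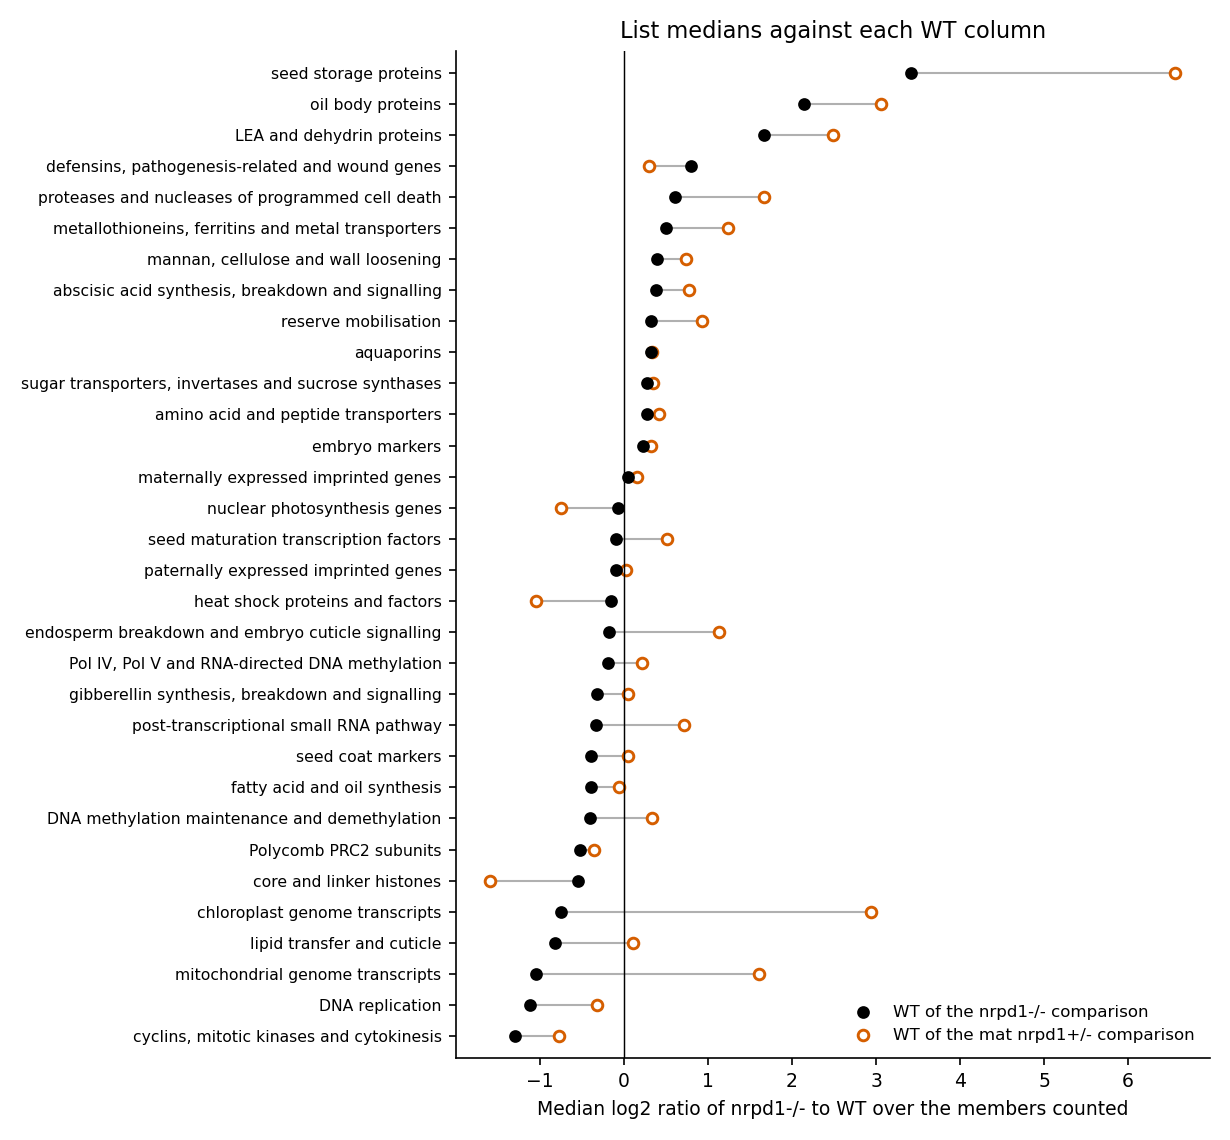
Median log2 ratio (horizontal axis) of each list with at least 5 genes counted, 1 list per line, against the WT of the same table (filled points) and against the second WT column after centring (open points). Both points lie right of 0 for storage proteins (3.42 and 6.56) and left of 0 for cyclins (-1.295 and -0.77), while those of chloroplast (-0.74 and 2.94) and mitochondrial (-1.05 and 1.61) transcripts lie on opposite sides of 0.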

How the data were processed

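RNA from hand-dissected endosperm was amplified by the authors into unstranded mRNA libraries and sequenced. Their processing notes name Trim Galore, FastQC, TopHat, the TAIR10 genome and Cuffdiff 2.2.1. The values used are the deposited FPKM, which Cuffdiff pooled over the libraries of a genotype and scaled within each comparison. Strand was not recorded, so overlapping and antisense genes cannot be told apart, and near-identical copies may share reads. The authors' own fold changes, test statistics, p-values and q-values were not used. The nrpd1-/- table supplied both genotypes, and the WT column of the mat nrpd1+/- table supplied the second WT. 1 value column was not used.

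Genes with status OK outside the 12 regions of residual Col-0 sequence were kept. Of 20308 genes with status OK 4318 lay inside those regions, and 17004 genes had too few reads (NOTEST). The log2 ratio used a pseudocount of 1 FPKM and a threshold of 2-fold, with no test, since no value per library was available. Read steps were found in intronless genes of 600 to 4000 bp with an assumed fragment length of 200 bp. Symbols, biotypes and promoters come from RefSeq (37044 of 37329 identifiers matched), and 118 of 133 chloroplast genes were named by coordinates. Imprinted gene names, not values, came from a supplementary sheet of the study.

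The genes and 33 functional and 3 marker lists were chosen with earlier results of these data known. The text names the 12 nuclear genes with the highest and the 12 with the lowest ratio or examples of them, members of each list at the ends of its range, members with a known role, NRPD1, and some protein-coding extremes picked after their values were seen. Alternatives changed the pseudocount (0.1 or 5 FPKM), minimum level, status, regions, centring, threshold (4-fold) and WT column. The promoter rule of the design also picked another gene, whose sequence is not reported here. The code was tested on simulated data. Python 3.11.15, pandas 2.3.3, NumPy 2.4.6 and matplotlib 3.10.9 were used.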

Additional observations from a re-analysis of the deposited data

How the results depend on the processing

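The number of higher genes was 1247 at the main setting, 2079 with a pseudocount of 0.1 FPKM, 623 with 5 FPKM, 778 with at least 1 FPKM in both genotypes, 364 at 4-fold and 2125 against the WT of the mat nrpd1+/- table. The number of lower genes was 1057, and then 1876 with 0.1 FPKM, 511 with 5 FPKM, 233 at 4-fold and 2718 against the second WT. At 4-fold the higher oil body genes numbered 5, and the lower genes numbered 17 for the chloroplast, 4 for mitochondria, 6 for cyclins and mitotic kinases, 0 for replication and 0 for histones. With 5 FPKM the lower genes numbered 15 for mitochondria, 3 for replication and 5 for histones. Against the second WT they numbered 7 for the chloroplast, 0 for mitochondria, 5 for replication and 23 for histones. The mitochondrial median turned to 1.61 against the second WT, and so did the ratios of STP1 (0.27), SDC (-1.47), AT2G20722 (-0.11), AT1G06273 (-1.06), AT5G00755 (-1.13), XERO1 (-0.029), XTH24 (1.39), MUM2 (0.33), psbA (ATCG00020, 1.58) and rbcL (ATCG00490, 5.20). Other chloroplast loci named above also turned, petN (8.91), psbT (1.03), psbF (2.52), trnS (ATCG00290, 2.91) and ArthCt100 (-4.65). The cause was not tested. Of 720 list counts under the alternatives, each with 1 choice changed except that the second WT also brought centring on the median, 569 stayed within 1.5 times the main count. Counts of 0 under both settings were taken as unchanged. The 569 include all 72 counts for a minimum of 1 FPKM in at least 1 genotype, which cannot change a 2-fold call at this pseudocount. They also include all 72 for centring on a median already close to 0. Against the second WT 33 counts stayed and 39 moved.

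No paired analysis was possible because the table holds 1 pooled value per genotype, and for the same reason leaving out each replicate was not run. At the WT depth, a value below 1 FPKM rests on few reads for a short transcript.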

Other observations

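Grouping the counted genes by RefSeq product name gave further families with at least 8 members, picked here after their values were seen. The 12 genes of the ATP binding microtubule motor family, kinesins that move chromosomes and vesicles, had 5 lower and 1 higher members and a median log2 ratio of -0.98 against WT and -0.35 against the second WT column. The 22 genes named as the defensin-like (DEFL) family had 7 lower and 3 higher members (median -0.37 and -2.83), and 10 further genes named as defensin-like proteins had 2 lower and 3 higher (0.096 and -1.55). The 12 genes of the pollen Ole e 1 allergen and extensin family had 5 higher and 0 lower members (median 0.90), but a median of -0.22 against the second WT column. The 18 genes of the plant invertase and pectin methylesterase inhibitor superfamily under that product name had 6 higher and 0 lower members (0.54 and 0.76), and 30 more listed as proteins of the same superfamily had 2 higher and 6 lower (0.18 and -1.12).

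Among non-coding classes, 697 lncRNAs had 69 higher and 88 lower members, and 34 antisense RNAs had 3 higher and 14 lower. Higher and lower genes lay on all 5 nuclear chromosomes, with 6.96% to 8.65% of genes higher and 5.72% to 6.56% lower. Nuclear genes were also classed by the higher of their levels in the 2 genotypes, so a gene could enter a class through 1 genotype alone. Of 59 genes in the highest class, 1000 FPKM or more, 20 (33.9%) were higher and 11 (18.6%) lower. Over all nuclear genes counted these shares were 7.79% and 6.28%. Because the class uses the same values as the calls, the comparison cannot show whether level itself matters.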
